A study of Homo sapiens with 16 samples.

Results

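NDRG1, MXI1, CA9, VEGFA, ADM, BNIP3, BNIP3L, EGLN3, KDM3A and ANKRD37 are 10 genes that cells switch on when oxygen runs low. They were read here in SAOS cells that had been given the retinoblastoma protein RB, the methyltransferase SMYD2, both or neither. The genes were chosen by name, as known targets of the hypoxia-inducible factors, with earlier results of these data known. Every array probe set annotated with one of them as its only gene symbol was taken. This gave 17 of the 41097 probe sets with a single symbol. They stand for 9 of the 10 genes, among 19775 genes with such a probe set. CA9, a carbonic anhydrase of the cell surface, had no such probe set in the annotation used and was not analysed here. VEGFA had 4 probe sets, BNIP3, BNIP3L, EGLN3, KDM3A and ANKRD37 had 2 each, and NDRG1, MXI1 and ADM had 1 each.

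SAOS is an established human osteosarcoma line whose own RB is not functional. The 16 arrays came from 4 groups of 4, numbered 1, 3, 4 and 5 within each: cells transiently transfected with human RB1 plus mouse SMYD2 (RB plus SMYD2), with human RB1 alone (RB), with mouse SMYD2 alone (SMYD2), and cells labelled wild type with no transfection (control). The study asked what SMYD2 overexpression does to ectopic RB. The labels name no empty-vector group, so whatever transfection alone does is part of each difference from control. Transient transfection leaves a mixture of cells with and without the constructs, so fewer responding cells and less RNA per cell cannot be told apart. The labels used here give no oxygen level. They do not say whether the 4 arrays of a group were separate cultures, and the p-values refer to the spread among arrays alone, which may be technical.

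The hypoxia-inducible factors are pairs of an oxygen-sensitive alpha subunit (HIF1A or EPAS1) and ARNT. When oxygen is plentiful, EGLN prolyl hydroxylases mark the alpha subunit and VHL sends it to the proteasome. When oxygen is short, the alpha subunit persists and the pair binds a short core motif in its target genes, which raise glycolysis, blood vessel growth and the removal of mitochondria. Many of these targets also answer to other signals, so their RNA level alone does not measure HIF activity.

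The core motif, ACGTG or GCGTG, was looked for on both strands of the promoters in RefSeq (GRCh38.p14), taken as 250 bases before and 50 after each start. Promoters of 7 of the 10 genes were in the table, 10 in all, since MXI1 has 3 starts there and KDM3A 2. At least 1 motif lay in 8 of these 10 promoters, and in a promoter of 6 of the 7 genes, where 48.4% of all 35114 promoters of that length held one. The 2 KDM3A windows overlap and share their 1 motif. The 2 MXI1 promoters with the motif (starts b and c) are printed because MXI1 is a gene that rose with RB (below), and those of ADM and BNIP3 because these genes did not pass the test and carry the same letters. Capitals mark the motif, which reads CACGT or CACGC where it lies on the other strand. In BNIP3 the motif on both strands overlaps as CACGTG, the E-box, which was present in 7.26% of all promoters. MXI1's windows lie at chr10:110209981-110210280, plus strand, and chr10:110225746-110226045, plus strand, ADM's at chr11:10304823-10305122, plus strand, and BNIP3's at chr10:131981874-131982173, minus strand.
MXI1 start b: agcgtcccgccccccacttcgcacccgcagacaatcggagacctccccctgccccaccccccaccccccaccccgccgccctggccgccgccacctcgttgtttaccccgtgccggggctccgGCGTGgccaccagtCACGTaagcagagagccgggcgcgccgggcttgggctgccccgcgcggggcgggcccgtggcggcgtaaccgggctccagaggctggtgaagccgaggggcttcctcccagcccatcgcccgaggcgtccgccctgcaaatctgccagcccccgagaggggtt
MXI1 start c: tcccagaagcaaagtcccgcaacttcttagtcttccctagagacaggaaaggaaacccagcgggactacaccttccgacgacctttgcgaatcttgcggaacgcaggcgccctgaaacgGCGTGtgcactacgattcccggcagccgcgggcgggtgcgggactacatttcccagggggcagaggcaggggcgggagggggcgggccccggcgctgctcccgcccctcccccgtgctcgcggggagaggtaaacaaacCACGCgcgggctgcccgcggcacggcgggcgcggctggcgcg
ADM: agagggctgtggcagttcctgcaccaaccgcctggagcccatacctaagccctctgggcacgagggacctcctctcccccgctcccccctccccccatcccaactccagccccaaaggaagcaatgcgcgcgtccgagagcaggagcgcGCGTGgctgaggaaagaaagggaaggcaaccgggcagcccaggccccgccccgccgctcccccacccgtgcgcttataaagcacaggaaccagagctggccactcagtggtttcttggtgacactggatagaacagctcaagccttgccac
BNIP3: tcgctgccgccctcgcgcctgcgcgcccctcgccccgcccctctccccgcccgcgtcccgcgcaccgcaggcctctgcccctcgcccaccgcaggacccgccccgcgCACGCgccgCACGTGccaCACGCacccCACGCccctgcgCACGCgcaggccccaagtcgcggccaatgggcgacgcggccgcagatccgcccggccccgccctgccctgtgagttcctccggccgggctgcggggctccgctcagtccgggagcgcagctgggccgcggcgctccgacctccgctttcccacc
MXI1 held 2 motifs in each window shown, ADM 1 and BNIP3 6, with the E-box counted on both strands. A match of these letters is a description and does not show that a factor binds there, and whether the motif has a part in any difference between groups was not tested.

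All values are log2 signals, so a difference of 1 is a doubling. Array medians lay between 5.59 and 5.64. RB1, the transfected gene, read 7.90 to 9.62 with RB plus SMYD2, 7.40 to 8.10 with RB, 6.59 to 6.98 with SMYD2 and 6.24 to 6.93 in control. Of 8 osteoblast markers measured, 7 averaged above 7, SPP1 being the exception at 5.62. Of 16 markers of other cell types, 2 did, the epithelial genes EPCAM at 9.40 and KRT18 at 9.74, and 0 of the 16 passed in any comparison. The mean level of those 16 lay between 5.70 and 5.85 in every group. The mean level of the osteoblast list was 11.13 to 11.58 with RB plus SMYD2, 11.22 to 11.59 with RB, 10.74 to 11.23 with SMYD2 and 10.78 to 11.32 in control, so the ranges overlapped. Of its 8 genes, 2 rose in RB against control (SPP1 and SPARC) and 2 in RB plus SMYD2 against SMYD2 (COL1A1 and SPARC), where 1.24% and 2.94% of all genes were called higher. All 8 differences were above 0 in each comparison, beside 51.8% and 52.2% of all genes. Their medians were 0.26 and 0.37, beside 0.01 over all genes in each. With the replicate number as a block in the fit, 3 and 5 of the 8 were called higher, beside 3.61% and 6.62% of all genes. The part of these markers in the results below was not tested. SMYD2 array 1 stood apart in RNA quality: its log2 ratio of 3′ to 5′ ACTB signal was 3.53. Control array 1 came next at 2.46, and the remaining arrays read 0.54 to 1.63.

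RB against control, and RB plus SMYD2 against SMYD2, ask what RB does to these genes without and with SMYD2. The comparisons share no array. NDRG1 and MXI1 rose with RB in both, by 1.35 to 1.53 times, and the other 7 genes passed in neither. In each comparison 2 of 9 genes were higher and 0 lower at limma's adjusted p under 0.05. Of all 19775 genes tested, 1.24% were called higher in RB against control and 2.94% in RB plus SMYD2 against SMYD2, and 0.976% in both. Calls were more frequent among brighter genes, and all 9 genes averaged above 7. With only the 9644 genes of a mean of at least 7 tested, the same 2 genes passed in each comparison. There 284 of the 9644 were called higher over control and 641 over SMYD2. The median difference of the 9 genes was 0.05 in RB against control and 0.01 in RB plus SMYD2 against SMYD2, beside 0.01 over all genes in each. As the genes were chosen with earlier results of these data known, their counts are set beside those of all genes as a description only. The 9 genes did not move as a block.

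NDRG1 encodes a cytoplasmic protein of stress responses and differentiation that is strongly raised by low oxygen. Its log2 signal was 11.21, 11.78, 11.66 and 11.68 on RB arrays 1, 3, 4 and 5, against 10.57, 11.13, 11.14 and 11.17 on the same-numbered control arrays. With SMYD2 present it was 11.41, 11.82, 11.79 and 11.68 with RB plus SMYD2, against 10.90, 11.09, 11.12 and 11.14 with SMYD2. Every array with RB lay above every array without it, and array 1 was the lowest in each of the 4 groups.

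NDRG1 rose by 0.58 ± 0.14 (SE) with RB over control, or 1.49-fold (limma adjusted p = 0.0327), and by 0.61 ± 0.14 with RB plus SMYD2 over SMYD2, or 1.53-fold (limma adjusted p = 0.0112). It was higher in 4 of 4 same-numbered pairs in each, by 0.50 to 0.66 over control and by 0.51 to 0.73 over SMYD2, as were 14% and 15.1% of all genes. In 4.85% of all genes the RB arrays lay wholly above control, and in 5.44% those of RB plus SMYD2 wholly above SMYD2. With the replicate number as a block both rises passed, with a standard error of 0.07 (limma adjusted p = 0.000110 over control and 1.5e-05 over SMYD2). In that fit 3.61% and 6.62% of all genes were called higher. Without the block, the call over SMYD2 held whichever of the 16 arrays was omitted. The call over control was lost in 5 of these 16 cases, with a difference of 0.51 without RB array 3, 0.55 without RB array 4, 0.55 without RB array 5, 0.44 without control array 1 and 0.63 without control array 4 (limma adjusted p = 0.108, 0.112, 0.102, 0.0795 and 0.0580).

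MXI1 encodes a partner of MAX that opposes MYC at its target genes. It read 10.49, 10.55, 10.46 and 10.29 on RB arrays 1, 3, 4 and 5, against 9.96, 10.16, 9.90 and 10.04 in control. Its signal was 10.55, 10.40, 10.47 and 10.80 with RB plus SMYD2, against 10.15, 10.10, 9.93 and 10.07 with SMYD2. Arrays with RB again lay wholly above those without it, and the shares of all genes that separated in each comparison are those given for NDRG1. No number was consistently low, so unlike for NDRG1 the spread within a group did not follow the replicate number.

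MXI1 rose by 0.43 ± 0.09 with RB over control, or 1.35-fold (limma adjusted p = 0.0174), and by 0.49 ± 0.09 with RB plus SMYD2 over SMYD2, or 1.41-fold (limma adjusted p = 0.00305). Same-numbered pairs differed by 0.25 to 0.56 and by 0.29 to 0.73. With the replicate block both rises passed too (limma adjusted p = 0.00703 over control and 0.00126 over SMYD2). Without the block, the call over SMYD2 again held with each array left out. Over control it was lost in 3 of 16 cases, at 0.40 without RB array 3, 0.43 without RB array 4 and 0.40 without control array 4 (limma adjusted p = 0.0615, 0.0616 and 0.0758), and at 0.40 without the 4 arrays of number 1 (limma adjusted p = 0.0546), a setting chosen after seeing the data.

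**Figure D1:**
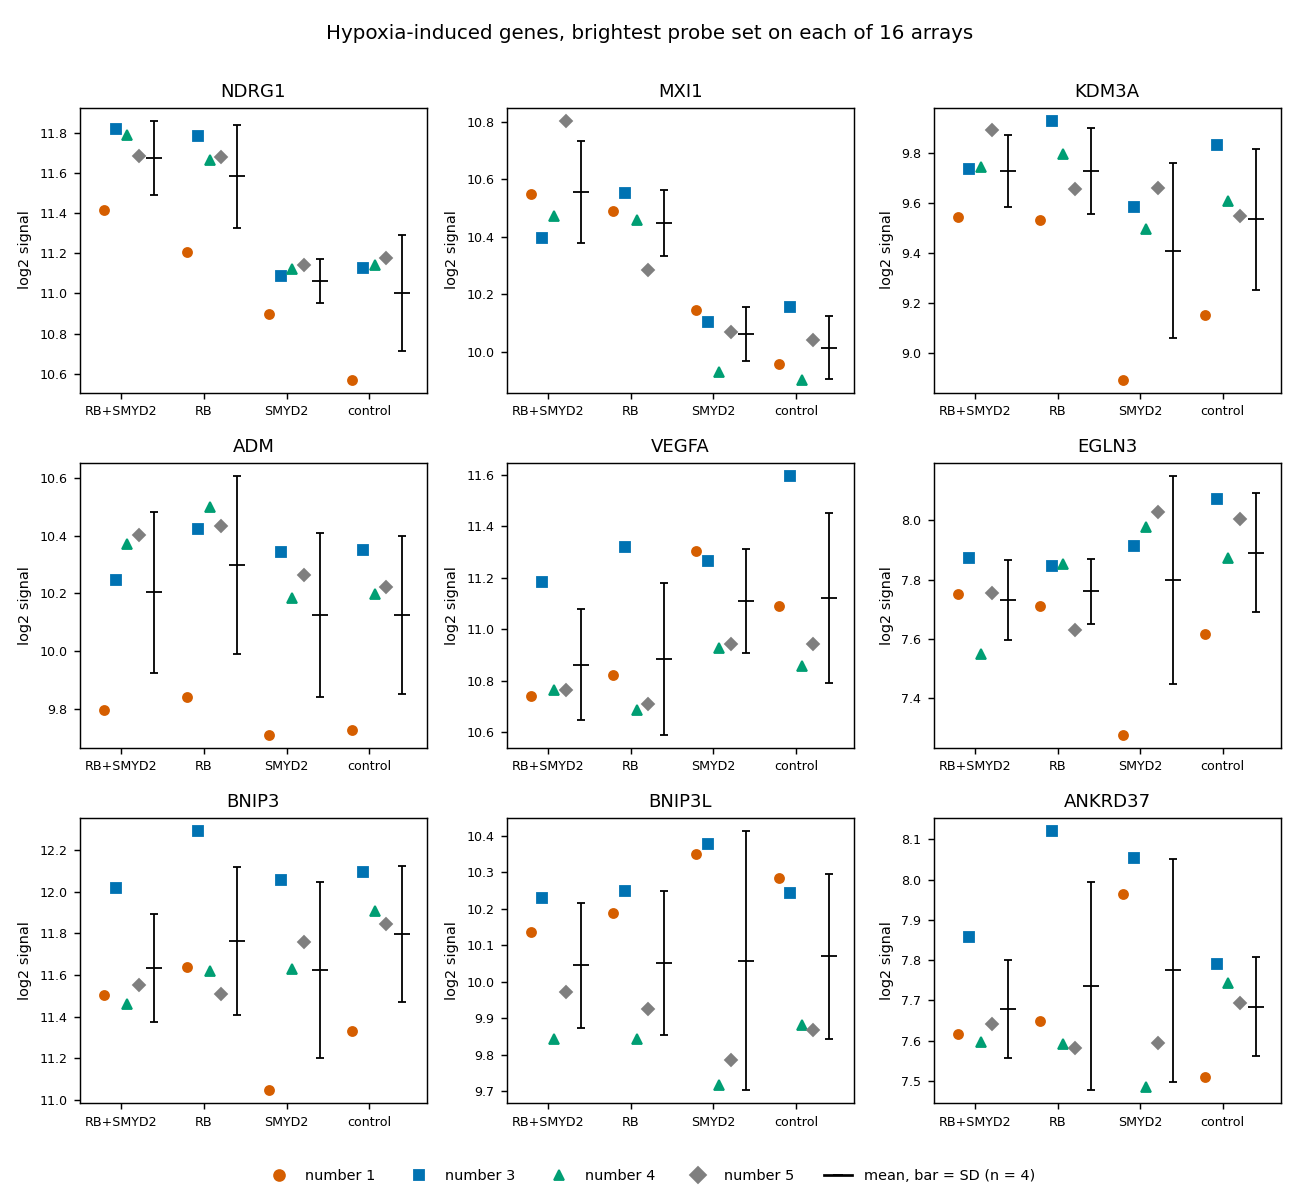
Log2 signal (vertical axis) of the brightest probe set of each of the 9 genes on 16 arrays, by group (horizontal axis), with the replicate number as symbol and colour and the group mean ± SD as bars (n = 4). NDRG1 and MXI1 separate the arrays with RB, on the left, from those without it, while the groups of the other genes overlap.

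KDM3A, a demethylase of lysine 9 of histone H3, came closest of the other 7 genes when each was read by its brightest probe set. It read 9.54, 9.74, 9.75 and 9.89 with RB plus SMYD2, against 8.89, 9.59, 9.50 and 9.66 with SMYD2. The groups overlapped, and SMYD2 array 1 was the lowest of all 16. The difference was 0.32 ± 0.16, in the same direction in 4 of 4 pairs, and did not pass (limma adjusted p = 0.292). With the replicate number as a block it did (limma adjusted p = 0.0339), where 6.62% of all genes were called higher, but the difference was 0.15 without SMYD2 array 1 (limma adjusted p = 0.611), the array of high 3′ to 5′ ACTB ratio. In RB against control KDM3A differed by 0.19 ± 0.16. The other KDM3A probe set was dim, at 3.57 to 3.91 on all arrays.

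Among the secreted factors, VEGFA, the main growth factor of blood vessels, leaned the other way. Its brightest probe set read 10.82, 11.32, 10.69 and 10.71 on RB arrays, against 11.09, 11.60, 10.86 and 10.94 on control arrays. It read 10.74, 11.18, 10.76 and 10.76 with RB plus SMYD2, against 11.30, 11.26, 10.92 and 10.94 with SMYD2. Each array with RB was below its same-numbered partner in both comparisons, as in 13.2% and 14.8% of all genes, but number 3 was so high in RB, in RB plus SMYD2 and in control that the groups overlapped.

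VEGFA's differences were -0.24 ± 0.17 and -0.25 ± 0.17 (limma adjusted p = 0.634 and 0.467), with 95% confidence intervals of -0.59 to 0.11 and -0.60 to 0.11. The other 3 VEGFA probe sets differed by -0.14, -0.20 and -0.28 in RB against control and by -0.25, 0.10 and -0.18 in RB plus SMYD2 against SMYD2. ADM, the vasodilator peptide adrenomedullin, differed by 0.18 ± 0.18 in RB against control and 0.08 ± 0.18 in RB plus SMYD2 against SMYD2.

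BNIP3 and BNIP3L are receptors of the outer mitochondrial membrane that direct mitochondria into autophagy. BNIP3 differed by -0.03 ± 0.21 in RB against control and 0.01 ± 0.21 in RB plus SMYD2 against SMYD2, and its second probe set by -0.05 and 0.02. BNIP3L differed by -0.02 ± 0.16 and -0.01 ± 0.16 in its brighter probe set, and by 0.19 ± 0.12 and 0.24 ± 0.12 in the other. Its probe sets did not read alike, though neither passed. The dimmer one just separated RB plus SMYD2, at 9.82 to 9.98, from SMYD2, at 9.43 to 9.82. Of all genes, 5.44% separated that way in their brightest probe set. In the fit over all probe sets its limma adjusted p was 0.332, and that of KDM3A's brighter probe set 0.350.

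EGLN3, a prolyl hydroxylase that acts on the alpha subunits and is itself a target, differed by -0.13 ± 0.15 and -0.07 ± 0.15, and by -0.06 and -0.09 in its other probe set. ANKRD37, an ankyrin repeat protein, differed by 0.05 ± 0.14 and -0.10 ± 0.14, and by -0.16 and -0.10 in its dimmer probe set. For these 7 genes the 95% confidence intervals of both differences, from the fit without the replicate block, together ran from -0.60 to 0.66, and each held 0. With the block the standard errors were smaller, at 0.08 for VEGFA, 0.07 for ADM and 0.10 for KDM3A. Of the 7 genes, only KDM3A over SMYD2 passed in that fit. VEGFA did not (limma adjusted p = 0.106 over control and 0.0570 over SMYD2).

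**Figure D2:**
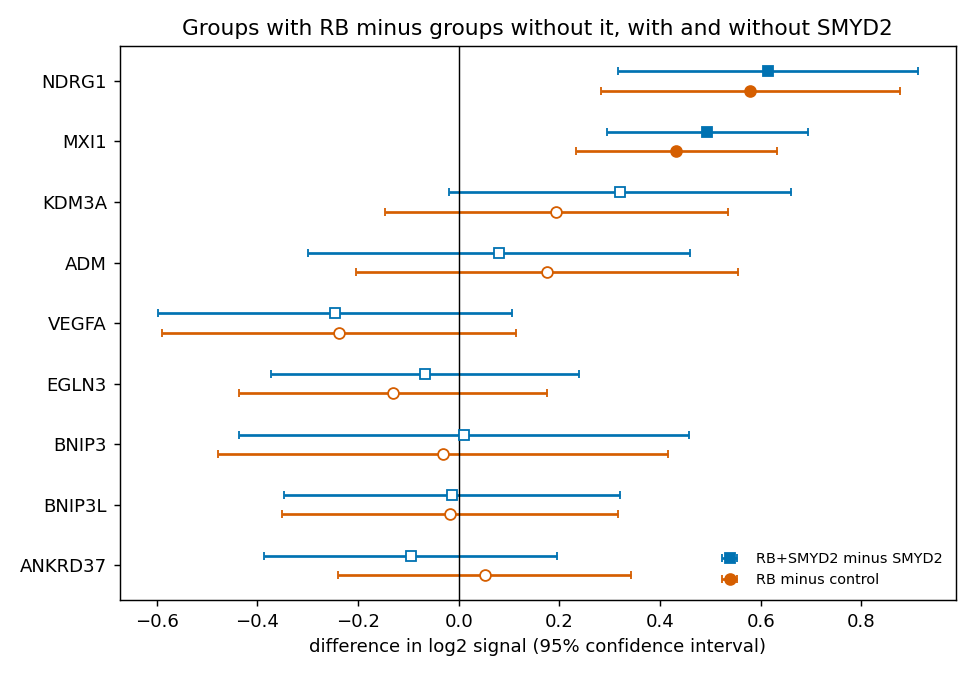
Difference in log2 signal between groups with and without RB (horizontal axis, with 95% confidence intervals of limma's fit) for the 9 genes, for RB plus SMYD2 minus SMYD2 (squares) and RB minus control (circles). Filled symbols passed at an adjusted p under 0.05: NDRG1 and MXI1 in both, and none of the other 7 genes.

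RB against SMYD2 set RB beside cells that were transfected too, without RB but with SMYD2. Whatever SMYD2 does is therefore part of each difference. MXI1 rose by 0.38 ± 0.09 (limma adjusted p = 0.0334) and was the 1 gene of 9 called, where 1.39% of all genes were called higher. NDRG1 differed by 0.52 ± 0.14 (limma adjusted p = 0.0532) and did not pass, although its RB arrays lay wholly above SMYD2, as did those of 4.13% of all genes. Both calls were close to the threshold. MXI1 lost its call without RB array 1, 3 or 4 or SMYD2 array 3, 4 or 5, where its difference was 0.37, 0.35, 0.38, 0.40, 0.34 and 0.39 (limma adjusted p up to 0.105). NDRG1 gained one without RB array 1, at 0.65 (limma adjusted p = 0.0170), or without control array 1, at 0.52 (limma adjusted p = 0.0184). Without the 4 arrays of number 1 NDRG1 passed, at 0.59, and MXI1 did not, at 0.40 (limma adjusted p = 0.000615 and 0.0570).

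RB plus SMYD2 against control gave the largest differences of the pair, 0.67 ± 0.14 for NDRG1 and 0.54 ± 0.09 for MXI1 (limma adjusted p = 0.00570 and 0.00139). These 2 genes were called higher of 9, against 3% of all genes. VEGFA differed by -0.26 ± 0.17 (limma adjusted p = 0.465), was lower in 4 of 4 pairs, as were 16.1% of all genes, and passed with the replicate block (limma adjusted p = 0.0479), where 6.78% of all genes were called lower. Without control array 3 its difference was -0.10. The comparisons with control share the control arrays.

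RB plus SMYD2 against RB asked what SMYD2 adds when RB is present, and SMYD2 against control what it does alone. None of the 9 genes passed in either. Over all 19775 genes limma called 0 in each (0% called), with 856 and 572 genes at an unadjusted p under 0.05. The 9 differences lay between -0.13 and 0.11 in RB plus SMYD2 against RB, and between -0.17 and 0.09 in SMYD2 against control. RB1 read 7.90, 7.90, 9.25 and 9.62 with RB plus SMYD2, above the 7.40, 7.43, 8.10 and 7.87 on the same-numbered RB arrays. Wherever RB plus SMYD2 is set beside RB, also in the interaction below, SMYD2 and the amount of RB1 RNA cannot be told apart.

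NDRG1 differed by 0.09 ± 0.14 in RB plus SMYD2 against RB and was higher in 4 of 4 pairs, as were 9.44% of all genes. MXI1 differed by 0.11 ± 0.09, higher in 3 of 4. Subtracting the difference of RB over control from that of RB plus SMYD2 over SMYD2 gave 0.03 ± 0.20 for NDRG1 and 0.06 ± 0.13 for MXI1. The 95% confidence intervals were -0.39 to 0.46 and -0.22 to 0.34. These intervals do not show that the responses were equal. None of the 9 genes, and 0 of 19775 (582 at an unadjusted p under 0.05), passed this interaction test.

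The same arrays were also read across the replicate numbers. In limma's test of the replicate number, with group in the fit, 6 of 9 genes passed, against 15.9% of all genes: NDRG1, VEGFA, ADM, BNIP3, BNIP3L and KDM3A. With only genes of a mean of at least 7 tested, as all 9 are, 31.5% of the 9644 passed. ANKRD37 then passed besides these, making 7 of the 9. Averaged over the 4 groups, all 9 genes were highest on number 3, MXI1 by little (0.03 on numbers 3 and 5). Of all genes, 23.9% were highest there. Number 1 was the lowest for 5 of them, NDRG1, ADM, BNIP3, EGLN3 and KDM3A, and number 4 for the other 4, while 31.8% of all genes were lowest on number 1. The test also called 7 of 18 HIF components, 12 of 23 glycolysis genes, 17 of 33 other hypoxia-induced genes and 6 of 8 osteoblast markers. The labels do not say what a number stands for.

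ADM showed this most clearly. It read 9.80, 9.84, 9.71 and 9.73 on array 1 of RB plus SMYD2, RB, SMYD2 and control, and 10.18 to 10.50 on the other 12 arrays. The arrays of number 1 lay below all others whatever the cells had received (limma adjusted p = 4.0e-05). With group means removed, ADM averaged -0.42 on number 1 and 0.12 to 0.15 on the other 3 numbers.

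BNIP3 was highest on number 3, at 12.02 with RB plus SMYD2, 12.29 with RB, 12.05 with SMYD2 and 12.10 in control, and lay between 11.05 and 11.91 on the other 12 arrays (limma adjusted p = 0.00196). With group means removed its numbers spanned 0.73, from -0.32 on number 1 to 0.41 on number 3. VEGFA stood at 0.35 on number 3 and at or below 0 on the others (limma adjusted p = 0.00100). BNIP3L split differently, 0.18 and 0.22 on numbers 1 and 3 against -0.23 and -0.17 on numbers 4 and 5 (limma adjusted p = 0.000523).

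NDRG1 averaged -0.31 on number 1 and 0.09 to 0.12 on the rest (limma adjusted p = 0.000900), a span of 0.43 beside its differences of 0.58 between RB and control and 0.61 between RB plus SMYD2 and SMYD2. KDM3A averaged -0.32 on number 1 and 0.17 on number 3 (limma adjusted p = 0.00729), and lost its call without control array 1. MXI1 spanned 0.11 and did not pass (limma adjusted p = 0.766), nor did EGLN3 (0.207) or ANKRD37 (0.0681), although ANKRD37 passed without SMYD2 array 1 or control array 4. The other EGLN3 probe set did pass, at 0.29 on number 3 and -0.17 to -0.01 on the rest (limma adjusted p = 0.0208 over all probe sets). The 3′ to 5′ ACTB ratio also moved with the number. On number 1 it was 1.17 with RB plus SMYD2, 1.63 with RB, 3.53 with SMYD2 and 2.46 in control. It was thus higher there on the arrays without RB, among them control array 1, where NDRG1 was lowest. On numbers 3, 4 and 5 it was 0.54 to 1.58. The GAPDH ratio averaged 0.07, 0.05, 0.08 and 0.09 on numbers 1, 3, 4 and 5. The part of RNA quality in the differences between numbers, or in those between groups, was not tested. Without the 4 arrays of number 1, a setting added after seeing the data, 4 genes passed, against 8.32% of all genes: VEGFA, BNIP3, BNIP3L and ANKRD37.

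**Figure D3:**
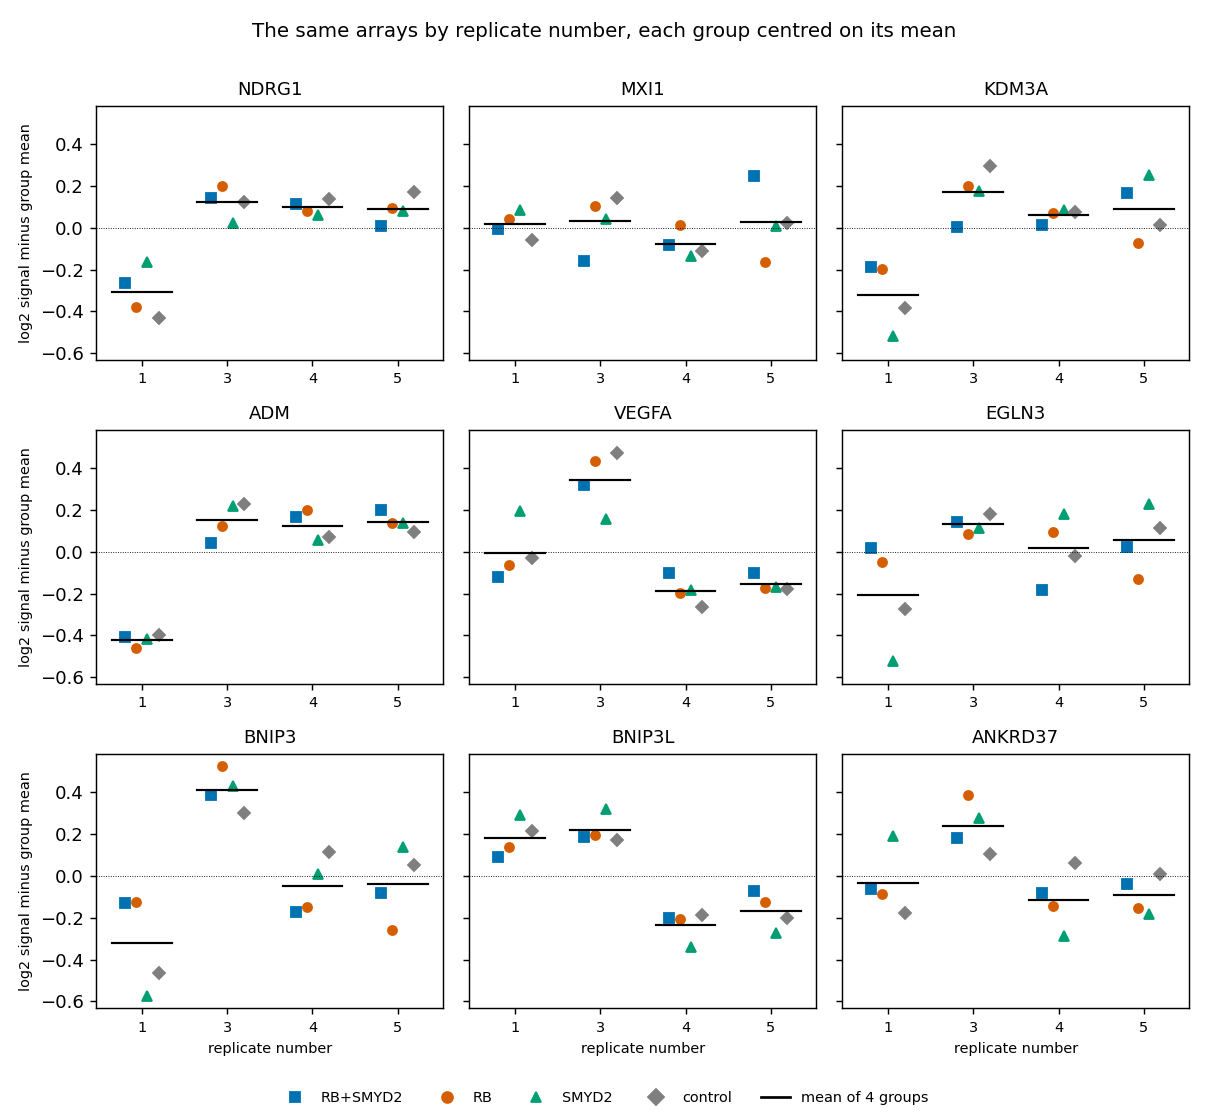
Log2 signal minus the mean of its group (vertical axis) for the 9 genes on 16 arrays, by replicate number (horizontal axis), with the group as symbol and colour and black lines for the mean of the 4 groups. Number 3 has the highest line in all 9 genes, ADM, NDRG1 and KDM3A are lowest on number 1 in each group, and MXI1 shows no such order.

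The pathway around these genes was read from 3 further lists, also chosen with earlier results of these data known. Of 18 components of the HIF system, 1, EPAS1, rose with RB in both comparisons and 0 fell. Of all genes, 1.24% were called higher over control and 2.94% over SMYD2, and 0.976% in both. EPAS1, also called HIF-2 alpha, read 11.09, 11.37, 11.44 and 11.30 on RB arrays, against 10.54, 10.99, 10.49 and 10.51 in control. It read 11.13, 11.41, 11.55 and 11.62 with RB plus SMYD2, against 10.08, 10.81, 10.60 and 10.69 with SMYD2. Groups with RB lay wholly above those without it. Such a separation was seen in 4.85% of all genes in RB against control and in 5.44% in RB plus SMYD2 against SMYD2.

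EPAS1 rose by 0.67 ± 0.15 over control and 0.88 ± 0.15 over SMYD2, or 1.59-fold and 1.85-fold (limma adjusted p = 0.0221 and 0.00128), and all 3 of its probe sets had that sign. Over control the call was lost without RB array 3, 4 or 5 or control array 1, 4 or 5 (limma adjusted p up to 0.0907), where the difference stayed at 0.62 to 0.67. Averaged over the probe sets the differences were smaller, 0.28 over control, where the call was lost, and 0.37 over SMYD2, where it held (limma adjusted p = 0.0655 and 0.00659). HIF1A, named outside the rule for named genes after its values were seen, differed by 0.02 ± 0.13 and 0.19 ± 0.13 and did not pass. The list's median was -0.01 in RB against control and 0.02 in RB plus SMYD2 against SMYD2, beside 0.01 over all genes. With the replicate block 2 of the 18 components also fell in RB plus SMYD2 against SMYD2, where 7.6% of all genes were called lower.

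Of 23 glycolysis genes measured, 0 passed in RB against control, and 1 rose and 1 fell in RB plus SMYD2 against SMYD2, where 2.94% of all genes were called higher and 4.25% lower, so these counts were near the background. Their medians were -0.02 and -0.04. ALDOC, a brain-type aldolase, read 9.94, 10.06, 10.12 and 10.31 with RB plus SMYD2, against 9.06, 9.63, 9.52 and 9.51 with SMYD2, and rose by 0.68 ± 0.14 (limma adjusted p = 0.00661). ENO2, the neuronal enolase, read 8.36, 8.69, 8.51 and 8.36 against 9.26, 8.90, 8.84 and 8.80 and fell by 0.47 ± 0.13 (limma adjusted p = 0.0317).

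Over control ALDOC differed by 0.42 ± 0.14, which passed with the replicate block (limma adjusted p = 0.156, and 0.00279 with the block), and ENO2 by -0.22 ± 0.13. ENO2 lost its call without RB plus SMYD2 array 1, 4 or 5 or SMYD2 array 1 or 3, with differences of -0.48 to -0.37 (limma adjusted p up to 0.107), and without the arrays of number 1, at -0.33 (limma adjusted p = 0.134). With the block, 1 of the 23 rose over control, and 2 rose and 2 fell over SMYD2, where 3.61% of all genes were called higher over control, and 6.62% higher and 7.6% lower over SMYD2.

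Of 33 other hypoxia-induced genes measured, the same 2 rose in both comparisons and 0 fell, beside 1.24% and 2.94% of all genes called higher. Their median difference was 0.10 in RB against control, with 25 of 33 above 0, and 0.15 in RB plus SMYD2 against SMYD2, with 23 above 0. Of all genes, 51.8% and 52.2% were above 0. STC2, a secreted glycoprotein of calcium and phosphate balance, read 9.59, 9.94, 9.12 and 8.87 with RB, against 8.36, 8.80, 8.61 and 8.55 in control, and 9.51, 9.74, 9.12 and 9.45 with RB plus SMYD2, against 8.53, 8.74, 8.54 and 8.58 with SMYD2. It rose by 0.80 ± 0.18 and 0.86 ± 0.18 (limma adjusted p = 0.0221 and 0.00661), with no overlap, as in 4.85% and 5.44% of all genes.

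P4HA2, a subunit of the hydroxylase that matures collagen, read 11.83, 11.94, 12.08 and 11.96 with RB, against 11.58, 11.75, 11.50 and 11.56 in control, and 11.91, 11.85, 12.00 and 12.13 with RB plus SMYD2, against 11.51, 11.52, 11.53 and 11.56 with SMYD2. It rose by 0.35 ± 0.08 and 0.45 ± 0.08 (limma adjusted p = 0.0140 and 0.00107) in its brightest probe set. Only 2 of its 3 probe sets had that sign, and averaged over them the differences were 0.17 and 0.14 (limma adjusted p = 0.360 and 0.346).

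Over control, STC2 lost its call without RB array 1 or 3 or control array 1, 4 or 5, at 0.73, 0.62, 0.73, 0.81 and 0.79 (limma adjusted p up to 0.0678), and P4HA2 without RB array 4 or control array 4 or 5, at 0.31, 0.32 and 0.34 (limma adjusted p up to 0.0712). Without the arrays of number 1 STC2 did not pass over control, at 0.66 (limma adjusted p = 0.114). With the replicate block 7 of the 33 genes rose in RB against control, and 10 rose and 1 fell in RB plus SMYD2 against SMYD2, where 3.61% of all genes were called higher over control, and 6.62% higher and 7.6% lower over SMYD2. By replicate number, 17 of the 33 and 15 of the 23 glycolysis genes were highest on number 3, beside the 23.9% of all genes. On number 1, 17 of the 23 glycolysis genes were lowest, beside 31.8% of all genes.

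**Figure D4:**
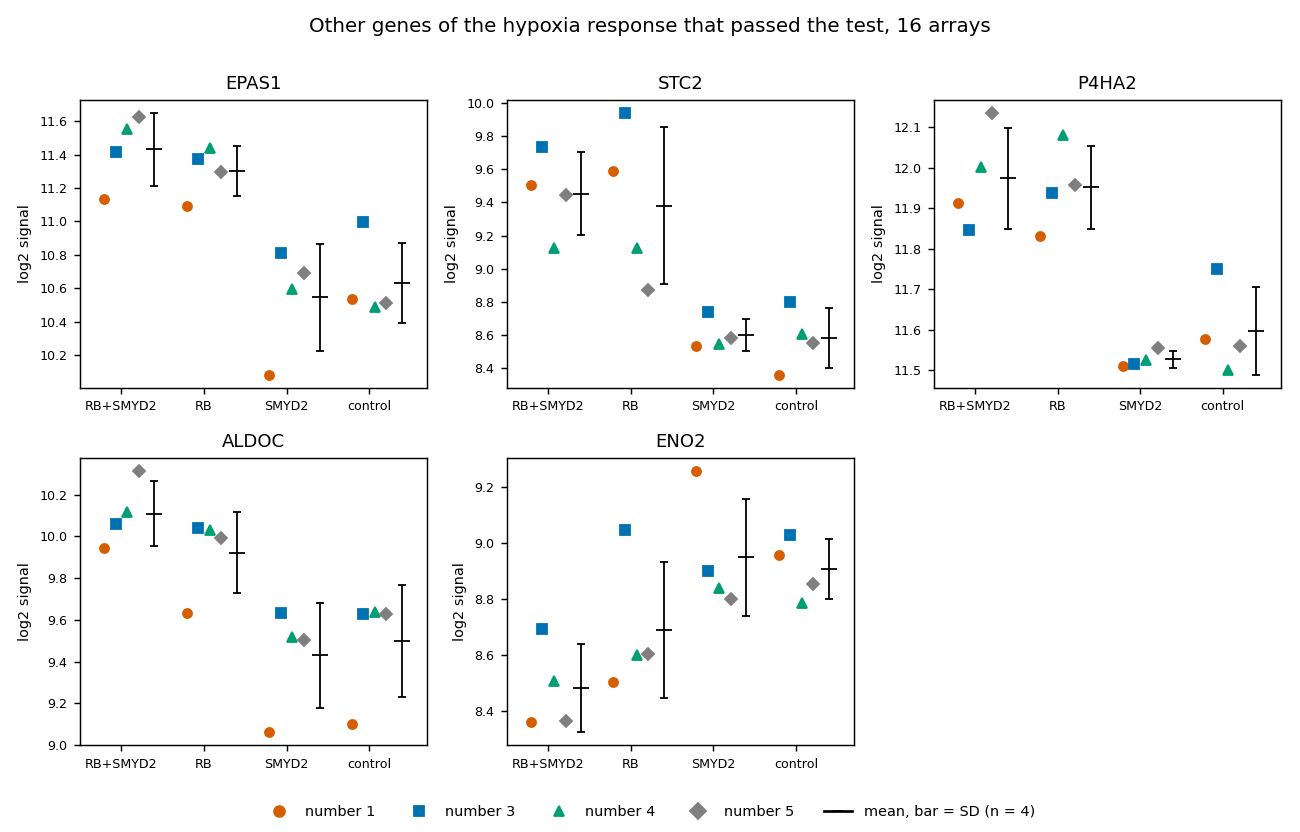
Log2 signal (vertical axis) on 16 arrays of the 5 genes of the 3 lists that passed in RB against control or in RB plus SMYD2 against SMYD2, by group (horizontal axis), with symbols for the replicate number and bars for the mean ± SD (n = 4). EPAS1, STC2 and P4HA2 are higher on every array with RB, and ENO2 is lower with RB plus SMYD2 than with SMYD2.

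**Figure D5:**
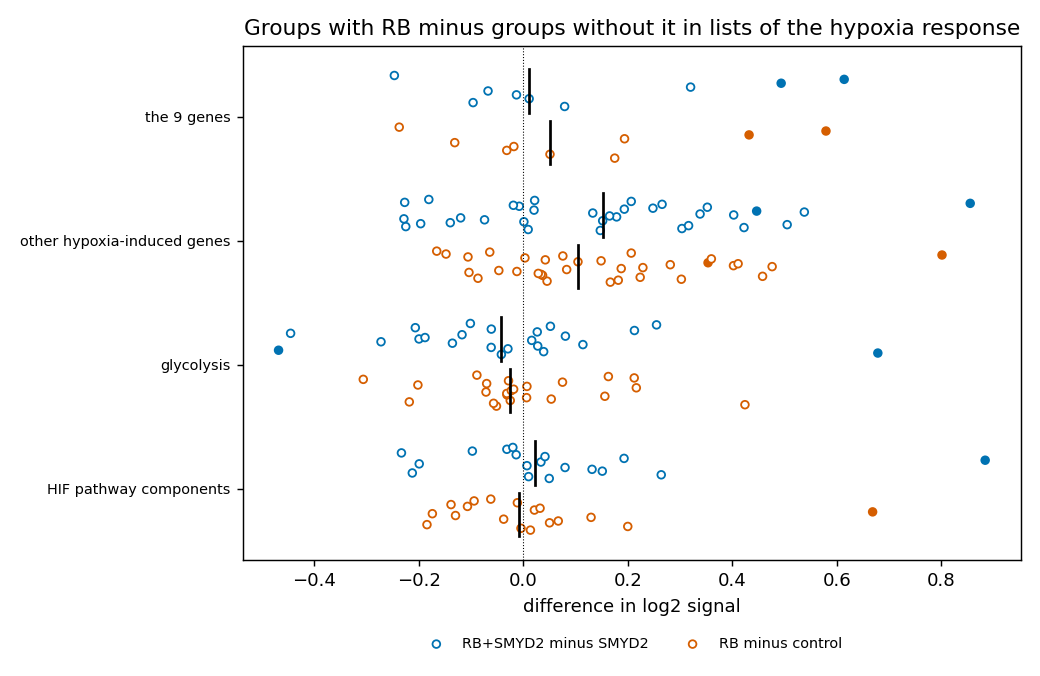
Difference in log2 signal between groups with and without RB (horizontal axis) for each gene of 4 lists, for RB plus SMYD2 minus SMYD2 (upper row of each list) and RB minus control (lower row), with filled points for an adjusted p under 0.05 and a black line at the median. Most genes lie near 0, and NDRG1, MXI1, EPAS1, STC2, P4HA2 and ALDOC are the filled points on the right.

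The genes whose pattern was most like that of NDRG1 and MXI1 were named by the root mean square difference between profiles over the 16 arrays, each gene centred on its own mean. Nearest to NDRG1 were CCN4 at 0.121, ALDOC at 0.124 and TRIB1 at 0.130, where NDRG1's own root mean square deviation was 0.357. CCN4, a secreted matrix-associated protein of the CCN family, averaged 12.68 with RB plus SMYD2, 12.52 with RB, 11.89 with SMYD2 and 11.92 in control. Nearest to MXI1 were ARL6IP5 at 0.0741, PEX19, a peroxisome import factor, at 0.0870 and FMO4 at 0.0949, where MXI1's own was 0.260. ARL6IP5 averaged 10.63 with RB plus SMYD2, 10.56 with RB, 10.21 with SMYD2 and 10.17 in control. The names nearest to NDRG1 and to MXI1 were different, and ALDOC, the glycolysis gene above, was among those of NDRG1.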

How the data were processed

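RNA of SAOS cells was read on 16 Affymetrix arrays, 1 per sample. The authors deposited log2 signals for 54675 probe sets. They were made with RMA, per the submitters' processing notes, with no version given. RMA corrects background, quantile-normalizes and summarises probes without calling detection, so dim probe sets may hold background only. Precision depends on there being 4 arrays a group. Genes were named from the platform annotation (41097 probe sets with 1 symbol, 1801 with several, 11777 with none), and the brightest probe set on average stood for each gene.

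Groups were compared with limma (version 3.58.1, run in R 4.3.3), fitting the 4 group means to all 16 arrays (lmFit, then eBayes with a trend, two-sided, Benjamini-Hochberg adjustment over 19775 genes within each comparison, threshold 0.05). There were 6 pairwise comparisons, the interaction and an F test of the replicate number with group in the fit, 8 in all. Errors of differences are limma's standard errors. Other probe sets of the 10 genes come from the same fit over all 41097. The 10 genes and the lists were chosen with earlier results of these data known. Named besides were, in the 2 comparisons of RB with a group of matching SMYD2 status, up to 4 genes per list that passed, and the 3 genes nearest in profile to each of the 10 genes that passed in either.

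Equal numbers were taken to pair arrays where every same-numbered pair's deviations from the group means correlated above 0.1 over all genes. This held in 5 of 6 pairwise comparisons (lowest 0.145) and not in RB against SMYD2 (lowest -0.0772). A fit with the number as a block is given where it changed a call, and beside some results that it did not change. Figures were drawn with matplotlib 3.10.9. Alternatives covered scaling, probe set choice, dim genes, the trend, array weights, samples in the fit, the block and each array left out.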

Additional observations from a re-analysis of the deposited data

Results flagged for a closer look

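In 9 of 68 sets of 4 arrays (17 probe sets in 4 groups) 1 array lay far from the other 3, with a gap to the nearest of them that took most of the whole range (Dixon's test at 95%). Chance flags about 1 in 20 such sets. All 9 were arrays of number 1 or 3. Of number 1, NDRG1 read 10.57 on control array 1 against 11.13 to 11.17 on the others of control, ADM 9.84 on RB array 1 against 10.42 to 10.50, EGLN3 7.28 on SMYD2 array 1 against 7.91 to 8.03, and a dimmer VEGFA probe set 6.56 on SMYD2 array 1 against 7.01 to 7.10. Of number 3, the brightest VEGFA probe set read 11.18 on RB plus SMYD2 array 3 against 10.74 to 10.76, and ANKRD37 8.12 on RB array 3 against 7.58 to 7.65. BNIP3 read 12.29 on RB array 3 against 11.51 to 11.64 in its brighter probe set and 11.06 against 10.56 to 10.60 in the other, and 12.02 on RB plus SMYD2 array 3 against 11.46 to 11.55 in the brighter one.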

How the results depend on the processing

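Of the 9 genes, the number called stayed at 2 in RB against control when arrays were rescaled, dim genes left out, the probe sets of a gene averaged, the trend dropped, arrays weighted or the replicate block added. It was 1 with every probe set tested and 1 with only the groups compared in the fit, where MXI1 remained (NDRG1 at limma adjusted p = 0.0522 and 0.0690), 1 without the arrays of number 1, where NDRG1 remained, and 0 to 2 with each array left out. In RB plus SMYD2 against SMYD2 and against control it was 2 with each array left out, and 3 with the block in each. RB against SMYD2, with 1, was the least settled: 2 with arrays centred on their medians, 2 with genes of a mean of at least 5, 2 with genes of a mean of at least 7, 2 with array weights, 3 with the replicate block, 0 with every probe set tested, 0 with only the groups compared, and 0 to 2 with each array left out. The number called by replicate number was 5 to 7 with each array left out and 4 without those of number 1. In RB plus SMYD2 against RB, SMYD2 against control and the interaction it was 0 in each alternative run. In the 2 comparisons of RB with a group of matching SMYD2 status, the differences of NDRG1, MXI1, VEGFA and KDM3A kept their sign under each of the 27 alternatives. Small differences that did not pass turned theirs: over control BNIP3 in 5, BNIP3L in 7 and ANKRD37 in 4 of 27, and over SMYD2 ADM in 1, BNIP3 in 5, BNIP3L in 8, EGLN3 in 1 and ANKRD37 in 1. The causes of these changes were not tested.

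The replicate block changed no other call of the 9 genes than those given (KDM3A in RB against SMYD2 also passed, at an adjusted p of 0.0458, as did NDRG1 at 0.000228). Counts over all genes moved by more than 1.5 times from 585 in RB against control to 1399 with the block, 2296 with array weights, 1089 without number 1, and 286 to 984 with an array left out. They moved from 1422 in RB plus SMYD2 against SMYD2 to 2812, 3141 with weights, 748 with only the groups compared and 859 to 1753, and from 1424 in RB plus SMYD2 against control to 2562, 3687 and 899 to 2032. For RB against SMYD2 they moved from 642 to 1831, 1790, 193, 1029 without number 1 and 304 to 888, and for the replicate number from 3146 to 1646 without number 1, 4977 of 41097 probe sets and 1750 to 3621. Medians of all genes stayed within 0.03 of 0.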
